A study of Mus musculus with 80 samples.

Results

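Steap4, Rnf122, Arid5a and Cd24a, 4 of the 23337 genes in the table, were chosen by their higher levels after leptin in controls or in knockouts of an RNA-seq series on AgRP neurons. The members were thus selected on the normalised counts of the leptin and PBS libraries, and their differences in that contrast are given as a description with no test. AgRP neurons of the arcuate nucleus make the peptides AgRP and NPY and drive feeding. The 80 libraries fell into 20 groups of 2 to 8. Sorted NPY-GFP cells came from NPY::hrGFP mice, in which a GFP reporter marks NPY cells: 6 libraries from mice fed ad libitum at ZT2, that is 2 hours into the light phase, and 3 at ZT14, 7 and 8 after an effective fast of 24 hours, and 5 and 4 after refeeding for 1 hour. RiboTag libraries held RNA immunoprecipitated with tagged ribosomes from AGRP-Cre;RiboTag mice, 3 and 4 fed ad libitum and 5 and 5 fasted at the same times. In the leptin series, AGRP-Cre;BMAL1fx knockouts, in which Cre is driven by the Agrp gene and the clock gene Arntl (Bmal1) is floxed, were set beside WT;BMAL1fx controls, which carry the floxed allele without Cre. Both received leptin or PBS at ZT2 or ZT14, with 3 libraries per group and 4 for control PBS at ZT2. A last set at ZT5 held 2 control and 3 knockout libraries of the same genotypes. The labels give no leptin dose, interval after injection or age, and describe no cell collection for the leptin and ZT5 sets.

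Leptin is a hormone of fat tissue that reports energy stores to the brain. On neurons it binds the long form of its receptor, LEPR, which activates the kinase JAK2 and the transcription factor STAT3, and STAT3 in turn induces Socs3, whose product inhibits the receptor. STAT3 binds paired sites of the form TTCNNNGAA. The 4 genes stand at different places in the cell. ARID5A is an RNA-binding protein that stabilises the mRNAs of Stat3 and Il6 in mouse immune cells, STEAP4 is a membrane metalloreductase that reduces iron and copper and is induced by cytokines in adipose tissue, RNF122 is a membrane-bound RING ubiquitin ligase that acts on the RNA sensor RIG-I, and CD24 is a heavily glycosylated GPI-anchored surface protein of immature neurons, ependymal cells and leukocytes.

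The promoters that could be matched in RefSeq (GRCm38.p6) are shown because STAT3 is a factor through which leptin acts on transcription. Of the 4 genes 2 matched, and Socs3 is printed beside them as a known STAT3 target. Each run covers 250 bases before to 50 bases after the gene's RefSeq start, 5′ to 3′ on the gene's strand, with matches to TTCNNNGAA in capitals: chr5:7960222-7960521 on the + strand for Steap4, chr1:36307483-36307782 on the + strand for Arid5a and chr11:117969317-117969616 on the - strand for Socs3.
Steap4: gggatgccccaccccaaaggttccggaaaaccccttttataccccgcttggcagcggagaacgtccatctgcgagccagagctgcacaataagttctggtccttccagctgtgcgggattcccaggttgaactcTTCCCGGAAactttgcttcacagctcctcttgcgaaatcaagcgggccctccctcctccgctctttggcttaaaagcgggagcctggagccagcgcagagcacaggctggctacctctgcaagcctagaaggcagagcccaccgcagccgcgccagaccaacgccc
Arid5a: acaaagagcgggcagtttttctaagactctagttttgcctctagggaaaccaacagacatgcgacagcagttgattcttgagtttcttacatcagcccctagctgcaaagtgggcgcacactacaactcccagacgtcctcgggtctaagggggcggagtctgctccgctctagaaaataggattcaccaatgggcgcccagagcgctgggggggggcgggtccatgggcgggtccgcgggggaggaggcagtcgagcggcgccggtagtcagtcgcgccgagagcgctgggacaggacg
Socs3: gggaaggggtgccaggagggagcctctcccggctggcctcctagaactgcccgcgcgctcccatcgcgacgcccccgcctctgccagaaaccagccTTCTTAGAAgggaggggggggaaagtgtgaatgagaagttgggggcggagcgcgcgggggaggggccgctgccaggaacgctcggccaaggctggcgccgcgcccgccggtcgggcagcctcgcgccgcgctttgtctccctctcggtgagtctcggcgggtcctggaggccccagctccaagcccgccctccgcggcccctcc

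The Steap4 promoter held TTCCCGGAA 116 bases before the start (position -116), which also matched the stricter form TTCCNGGAA, and the Socs3 promoter held TTCTTAGAA at position -154. The Arid5a window held neither form. TTCNNNGAA was present on either strand in 8.33% and TTCCNGGAA in 1.16% of 32544 promoters of the same length, and every match to the second is also a match to the first. The other motifs searched, CACGTG (7.17% of promoters), TGTTTAC (3.66%), TGANTCA (7.79%) and TGACGTCA (1.8%), were found in none of the 3 windows. In GENCODE M21 on mm10, all 4 protein-coding genes lie on the + strand and overlap no other annotated gene: Steap4 at chr5:7960457-7982213, Rnf122 at chr8:31111820-31131482, Arid5a at chr1:36307733-36324029 and Cd24a at chr10:43578284-43584265. Transcripts of Cd24a match 1 other gene, Gm6212, over 218 bases at 96.8% identity, so that reads from such a copy could enter its count; Gm6212 is not in the table, and the other 3 genes had no such match.

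Values are the deposited normalised counts, in which each library's gene counts were scaled by its size factor. Reads recovered in 79 libraries came to 5.93 to 34.0 M (median 14.3 M). A profile set the 25 fasted and 5 ZT5 libraries apart from the other 50: Cebpb ran from 42.5 to 1565 in the former and 0 to 17.1 in the latter, and Alyref from 545 to 2756 against 12.3 to 81.8. The ribosomal precursor Rn45s was mostly lower in the former (median 5367 against 209817). Its ranges overlapped, at 1577 to 148448 against 50805 to 963336. Fasting and this profile cannot be told apart among the fasted and ad libitum libraries; the leptin, PBS and refed libraries lack it. In the ZT5 set, Hsd11b2, high in knockouts (group means 2428 to 3056) and near 0 in controls (0.907 to 8.21) of the leptin series, went against the label of control replicate 1 (4628) and knockout replicate 3 (11.2). The Arntl count covers the whole gene and checks no deletion: with PBS at ZT2 it ran from 291 to 1125 in controls and 246 to 526.3 in knockouts. Markers of AgRP neurons were high in every group, with none of the 10 at 0 throughout a group.

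Steap4 was close to undetected in the PBS libraries and was read from all 12 leptin libraries. In controls at ZT2 it stood at 1.03, 0, 0 and 0 with PBS and 154, 293 and 408 with leptin. In controls at ZT14 the values were 4.49, 4.07 and 0 with PBS and 116, 334 and 407 with leptin. Every leptin library of the controls lay above every PBS library. Knockouts at ZT2 gave 13.3, 0 and 0 with PBS and 10.4, 426 and 61.2 with leptin, and at ZT14 0, 3.11 and 0 with PBS and 845, 534 and 227 with leptin. In knockouts at ZT2 the groups overlapped, since the lowest leptin library lay under the highest PBS library, and a single leptin library held most of the signal. Over summed reads the controls at ZT2 had 1576 reads against 1, a ratio per sequencing depth of 1246. In the controls at ZT14 the sums were 850 reads against 10, a ratio per sequencing depth of 83.6. The knockouts had 541 reads against 16 at ZT2, a ratio of 37.6, and 1637 against 3 at ZT14, a ratio of 649. These ratios pool the libraries of a group and do not carry the spread between them. With 1 to 16 PBS reads they are imprecise. A library at 0 allows up to 3 reads, which is 2.11 to 6.58 normalised counts depending on the PBS library. Most PBS values lie at or under what a count of 0 allows in their own library. The values 4.49 and 4.07 of controls at ZT14 and 13.3 of knockouts at ZT2 lie above it. On the log2(value + 1) scale of the fit, which understates changes of low genes, the differences were 7.80 ± 1.00 (SE), 6.38 ± 1.07, 4.79 ± 1.07 and 8.19 ± 1.07 in the same order. Leaving out 1 library at a time, the knockout difference at ZT2 ran from 3.46 to 6.07, lowest without leptin replicate 2 (426) and highest without leptin replicate 1 (10.4), and the other 3 from 7.48 to 8.18, 5.58 to 6.93 and 7.77 to 8.87.

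Rnf122 was present in every library of the series and stood above a narrow PBS range after leptin. In controls at ZT2 its values were 68.7, 71.8, 78.1 and 80.8 with PBS and 265, 527 and 1106 with leptin; at ZT14 they were 106, 83.8 and 132 with PBS, against 295, 339 and 247 with leptin. In knockouts at ZT2 they were 138, 50.4 and 84.9 with PBS, against 252, 913 and 271 with leptin, and at ZT14 125, 98.5 and 95.3, against 1279, 870.1 and 608. No leptin library, in any of the 4 pairs of groups, fell into the PBS range. The log2 differences were 2.83 ± 0.43 and 1.46 ± 0.46 in controls at ZT2 and ZT14, and 2.23 ± 0.46 and 3.04 ± 0.46 in knockouts. Without 1 library at a time they ran from 2.31 to 3.34, 1.30 to 1.62, 1.63 to 2.58 and 2.77 to 3.31.

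Arid5a lay above its PBS range in every leptin library of all 4 pairs. In controls at ZT2 it stood at 157, 89.2, 114 and 172 with PBS and 607, 1762 and 2934 with leptin; at ZT14 it stood at 79.9, 117 and 61.4, against 286, 1155 and 1115. Knockouts at ZT2 gave 126, 91.5 and 35.8 with PBS, against 747, 2876 and 392 with leptin, and at ZT14 102, 254 and 214, against 2908, 1816 and 1516. Leptin libraries of a group differed among themselves by up to several fold. Log2 differences were 3.497 ± 0.60, 3.09 ± 0.65, 3.64 ± 0.65 and 3.49 ± 0.65 for controls at ZT2 and ZT14 and knockouts at ZT2 and ZT14. Without 1 library at a time they ran from 3.00 to 4.13, 2.75 to 3.75, 2.84 to 4.28 and 3.09 to 3.75; the value for knockouts at ZT2 was lowest without leptin replicate 2 (2876) and highest without leptin replicate 3 (392).

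Cd24a was already abundant with PBS, and its differences after leptin were smaller. In controls at ZT2 the PBS values 4395, 1102, 1367 and 1524 overlapped the leptin values 2452, 1957 and 3042. At ZT14 the controls gave 1274, 729 and 1057 with PBS and 1524, 1749 and 2459 with leptin. In knockouts the values were 2704, 1622 and 1925 with PBS and 4558, 3889 and 3607 with leptin at ZT2, and at ZT14 394, 1043 and 1619, against 4343, 3937 and 4587. The 3 pairs other than controls at ZT2 did not overlap, and the knockout leptin libraries were close to each other. The log2 differences were 0.45 ± 0.39 and 0.91 ± 0.42 in controls and 0.97 ± 0.42 and 2.29 ± 0.42 in knockouts; without control PBS ZT2 replicate 1, the library at 4395, the first became 0.89, and over all such omissions the 4 ran from 0.22 to 0.89, 0.69 to 1.09, 0.81 to 1.18 and 1.72 to 2.74. In these bulk libraries, more cells that express a gene and more RNA of it per cell cannot be told apart. Limma called 3 genes of 13942 (0.0215%) in controls at ZT2, 59 (0.423%) in knockouts at ZT2 and 12 (0.0861%) in knockouts at ZT14 at an adjusted p under 0.05. It called none (0.0%) in controls at ZT14, where 384 had an unadjusted p under 0.05 and the quasi-likelihood test of edgeR also called 0.

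**Figure D1:**
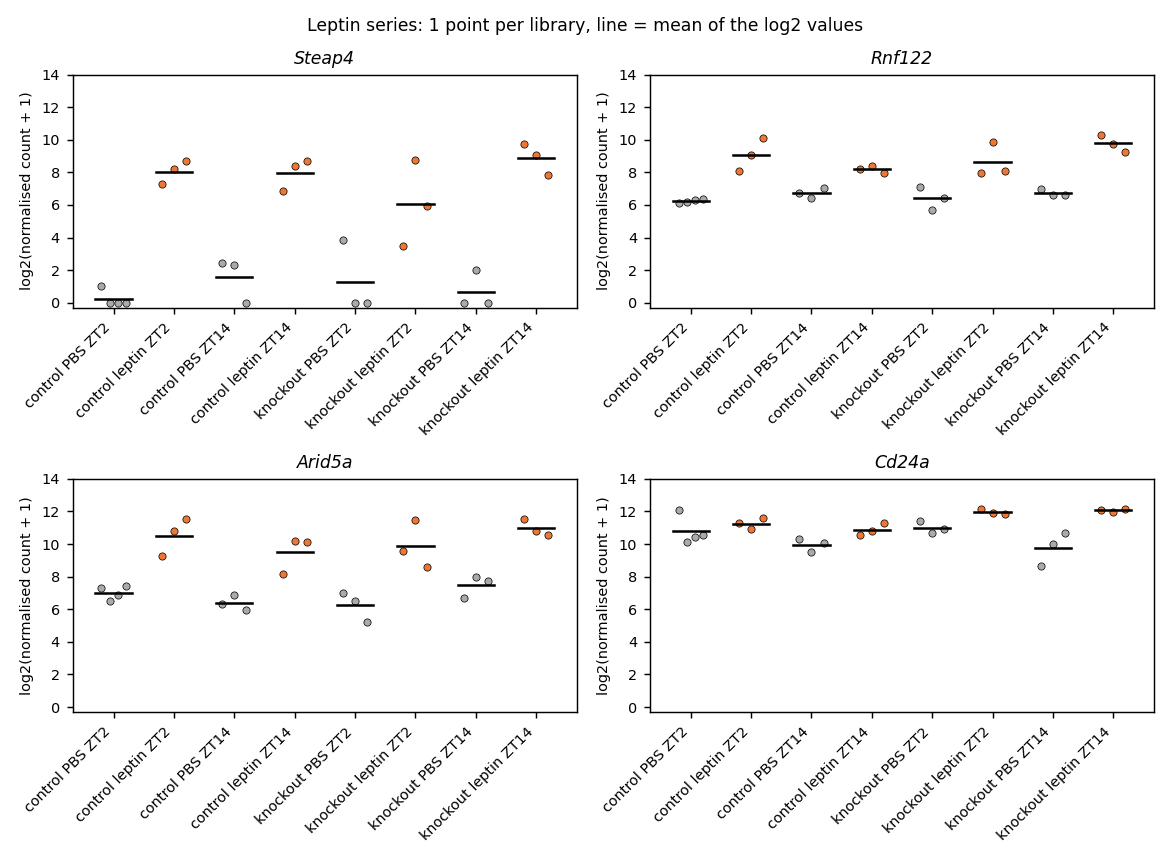
Normalised counts of the 4 genes in the 25 libraries of the leptin series, as log2(normalised count + 1) on the vertical axis; each point is a library (grey PBS, orange leptin) and each line the mean of a group. Rnf122 and Arid5a leptin libraries sit above all PBS libraries of their pair, whereas Cd24a of controls at ZT2 overlaps.

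The leptin libraries differed among themselves, and the orders of Steap4, Rnf122 and Arid5a matched in part; these are the values that chose the genes. Of the 12 leptin libraries, control ZT2 replicate 3 ranked 4, 2 and 1 for Steap4, Rnf122 and Arid5a, and knockout ZT14 replicate 1 ranked 1, 1 and 2. Knockout ZT2 replicate 3 ranked 11, 9 and 11, and control ZT14 replicate 1 ranked 10, 8 and 12. The ranks differed in others: control ZT14 replicate 3 ranked 5, 12 and 8, and knockout ZT14 replicate 3 ranked 8, 5 and 6. Socs3, the feedback inhibitor, ranked 1, 2, 11 and 12 in the first 4 of these libraries, with counts of 818, 644, 64.0 and 63.9. Cd24a followed another order: the 6 knockout libraries held ranks 1 to 6 and the 6 control libraries ranks 7 to 12. Knockout ZT2 replicate 1, which ranked 12 for Steap4 and 11 for Rnf122, ranked 2 for Cd24a, at 4558. As a description over the 8 group means of the leptin series, Pearson's r was 0.956 for Steap4 with Rnf122, 0.939 for Steap4 with Arid5a and 0.971 for Rnf122 with Arid5a, against 0.703 to 0.751 for Cd24a with each of them; 4 of the 8 means are leptin groups, and these libraries chose the genes.

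After leptin at ZT14, knockouts lay above controls for 3 of the genes without overlap. How many of all genes separate this way between groups of 3 libraries was not counted, so the separation does not set these genes apart. The log2 difference of knockouts minus controls was 1.59 for Rnf122, 1.48 for Arid5a and 1.19 for Cd24a, and the Steap4 groups overlapped (0.90). At ZT2 the order was otherwise: Cd24a was again higher in knockouts without overlap (0.71), whereas Steap4 (-1.98), Rnf122 (-0.43) and Arid5a (-0.63) overlapped. The leptin difference in knockouts minus that in controls was 1.59 ± 0.65 for Rnf122, 1.82 ± 1.51 for Steap4, 0.40 ± 0.91 for Arid5a and 1.38 ± 0.60 for Cd24a at ZT14. At ZT2 it was -0.60 ± 0.63, -3.00 ± 1.46, 0.15 ± 0.88 and 0.52 ± 0.58 in the same order. Since leptin libraries of both genotypes chose the genes, these differences were not tested. Between genotypes after leptin, astrocyte sums (6 genes) were lower in knockouts without overlap at ZT2, at 1338 to 1874 against 2974 to 4075. At ZT14 they stood at 1819 to 3420 against 3463 to 3813. Microglial sums (7 genes) were also lower at ZT14, at 2.66 to 5.65 against 7.25 to 19.2, and the other lists overlapped. Aqp4, Slc1a3 and Gja1, of the astrocyte list, were at 0 in knockouts with leptin at ZT2. Between leptin and PBS, 3 of 10 lists of cell type markers separated without overlap in knockouts at ZT2. The POMC sums (5 genes) stood at 2157 to 3310.0 with PBS and 4891 to 6565 with leptin. Sums of other hypothalamic neurons (10 genes) stood at 8808 to 15300.0 and 15620.0 to 43730.0, and those of endothelium (6 genes) at 27.9 to 34.5 and 2.78 to 17.5. In knockouts at ZT14 the POMC sums (3151 to 4869 with PBS and 5180.0 to 5909 with leptin) and the microglial sums (7 genes, 7.25 to 18.7 and 2.66 to 5.65) separated, and 8 lists overlapped. In controls at ZT14 only the microglial sums separated (4.39 to 5.70 and 7.25 to 19.2), and at ZT2 all 10 lists overlapped. Prdm12 and Nhlh2, of the POMC list, were at 0 in all 4 knockout groups. In controls, Nhlh2 was at 0 with leptin at ZT14 and with PBS at ZT2, and Prdm12 with PBS at ZT14. Kiss1 and Tac2, of the list of other neurons, were at 0 in knockouts and controls at ZT2, both with PBS and with leptin. No tested gene of these lists was called between leptin and PBS, and the part of these cells in the members' values was not tested.

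Few other genes of the same pathways were called after leptin. Of 20 tested genes of the leptin receptor and JAK-STAT list, Socs2, a cytokine-induced suppressor of signalling, was the only one called, in knockouts at both times (1.45 ± 0.19, limma adjusted p = 0.000877 at ZT2; 1.85 ± 0.19, 1.02e-05 at ZT14), and none was called in controls. In controls Socs2 differed by 0.84 ± 0.17 (adjusted p = 0.130) at ZT2 and 0.71 ± 0.19 (0.834) at ZT14. None of the 20 tested STAT3 target genes was called in any of the 4 comparisons, while between 1 and 6 of them had an unadjusted p under 0.05. Their median difference was 0.37, 0.16, 0.70 and 0.56 (controls ZT2 and ZT14, knockouts ZT2 and ZT14), beside medians over all genes of 0.00343, -0.00941, 0.0218 and -0.0139. Socs3 itself differed by 1.47 ± 0.81, 1.01 ± 0.86, 2.31 ± 0.86 and 1.57 ± 0.86, with adjusted p of 1.0, 1.0, 0.367 and 0.996. Of 12 tested ARID family genes, Arid5b, the paralog of Arid5a and a transcriptional cofactor, was called in knockouts at both times (1.32 ± 0.25, adjusted p = 0.0171; 1.36 ± 0.25, 0.0225); in controls it differed by 1.25 ± 0.23 (0.0633) and 1.25 ± 0.25 (0.153). Its leptin values, 674 to 1161 over the 4 groups, lay above its PBS values of 248 to 512. None of the 15 tested STEAP family and metal-handling genes was called, nor any of the 9 RNF122 relatives and partners, 6 mRNA decay factors or 5 CD24 partners. Steap1, another metalloreductase gene of the family, differed by 0.91 ± 0.42 (adjusted p = 1.0) in controls and 1.62 ± 0.42 (0.257) in knockouts at ZT14.

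With PBS alone, the genotypes and times are described without a test, since these libraries also chose the genes. Steap4 gets no difference here: it was at 0 in 8 of 13 PBS libraries, and 1 of them reached the filter value of 10, so that it entered the fit through the leptin libraries. Knockouts minus controls differed at ZT2 by 0.17 ± 0.43 for Rnf122, -0.78 ± 0.60 for Arid5a and 0.19 ± 0.39 for Cd24a. At ZT14 they differed by 0.00 ± 0.46, 1.08 ± 0.65 and -0.19 ± 0.42. ZT14 minus ZT2 gave 0.49 ± 0.43, -0.62 ± 0.60 and -0.84 ± 0.39 in controls and 0.33 ± 0.46, 1.24 ± 0.65 and -1.22 ± 0.42 in knockouts. The Cd24a libraries of the knockouts did not overlap between times, all 3 at ZT14 lying below all 3 at ZT2. The share of all genes that separate so was not counted. Over all genes limma called 0.0215% and 0.00717% between genotypes at ZT2 and ZT14, and 0.00717% between times in controls. It called 0.0% between times in knockouts, with 692 genes at an unadjusted p under 0.05 and 0 called by edgeR. Of the 10 marker lists, 1 lay higher and 3 lay lower without overlap in PBS knockouts than in PBS controls at ZT2. At ZT14, 3 lay higher and 7 overlapped. The part of these marker differences in the members' values was not tested.

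The feeding libraries came from mice of other lines and their values did not enter the rule, although the 4 genes were taken up with earlier results on all libraries known. The names of the sorted libraries carry a separate prefix for each feeding state, and the labels do not state whether the states were prepared together. In sorted NPY-GFP cells, Cd24a was higher after the fast at both times. Its normalised count ran from 134 to 299 with a median of 208 in the 6 ad libitum libraries at ZT2 and from 523 to 4757 with a median of 1674 in the 7 fasted ones. At ZT14 the 3 ad libitum libraries gave 214, 129 and 99.5, and the 8 fasted ones ran from 362 to 2804 with a median of 1189. All fasted libraries lay above all ad libitum libraries of their time. The ratio of mean counts was 10.3 at ZT2 and 9.70 at ZT14, and the log2 differences were 3.14 ± 0.40 (limma adjusted p = 1.71e-07) and 3.12 ± 0.48 (adjusted p = 1.91e-05). The fasting difference at ZT14 minus that at ZT2 was -0.02 ± 0.63 (adjusted p = 0.999).

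Arid5a was also higher after the fast at ZT2, where it ran from 4.18 to 66.0 with a median of 38.4 in ad libitum and from 54.2 to 165 with a median of 104 in fasted libraries (log2 difference 1.92 ± 0.51, adjusted p = 0.00334), with overlapping groups. At ZT14 it was 90.6, 73.7 and 71.7 in ad libitum libraries and ran from 27.9 to 349 with a median of 179 in fasted ones (0.83 ± 0.63, adjusted p = 0.379). Rnf122 went the other way at ZT2, from a range from 52.3 to 173 with a median of 75.4 in ad libitum libraries to a range from 17.8 to 94.9 with a median of 43.6 in fasted ones (-1.01 ± 0.39, adjusted p = 0.0406), again with overlap. This call was lost in 7 of 13 fits that left out 1 library (ad libitum replicates 2, 5 and 6, and fasted replicates 1, 3, 4 and 5, adjusted p 0.0516 to 0.118). At ZT14 Rnf122 was 126, 90.8 and 103 in ad libitum libraries and ran from 42.0 to 154 with a median of 103 in fasted ones (-0.24 ± 0.48, adjusted p = 0.769). Steap4 did not pass the filter of 10 in enough libraries: it was above 0 in 3 of 6 ad libitum and 1 of 7 fasted libraries at ZT2, and in 0 of 3 and 5 of 8 at ZT14, with a highest value of 15.8. Of the 3 genes tested, 3 were called at ZT2 (2 higher, 1 lower) beside 37.5% of the 14931 genes tested, and 1 at ZT14 beside 18.5%. With such backgrounds a call alone does not set these genes apart from the rest. No gene was called for a fasting difference that changed between times (0.0% of genes called by limma, 647 at an unadjusted p under 0.05); that of Arid5a was -1.09 ± 0.81 and that of Rnf122 0.77 ± 0.62 (adjusted p = 0.999 for both).

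**Figure D2:**
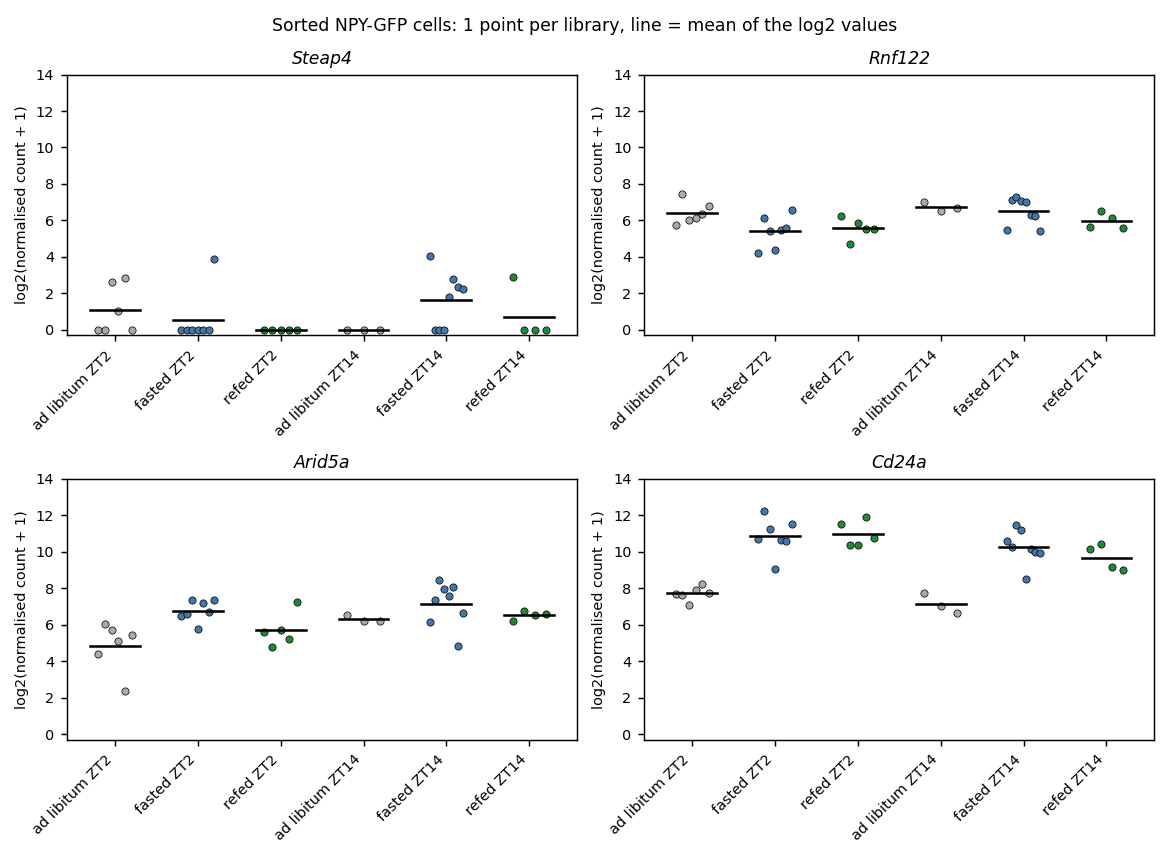
Normalised counts of the 4 genes in the 33 libraries of sorted NPY-GFP cells, as log2(normalised count + 1) on the vertical axis, by feeding state and time; each point is a library and each line the mean of a group (grey ad libitum, blue fasted, green refed). Cd24a lies higher in all fasted and refed libraries than in the ad libitum libraries of the same time, and Steap4 stays near 0.

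After 1 hour of refeeding Cd24a remained above the ad libitum level. It stood at 2979, 1329, 1350.0, 3817 and 1717 at ZT2 and 1119.7, 1354, 581 and 506 at ZT14, above every ad libitum library of the same time and within the fasted range in both cases. Against ad libitum cells the log2 difference was 3.28 ± 0.43 (adjusted p = 2.95e-06) at ZT2 and 2.54 ± 0.55 (adjusted p = 0.0187) at ZT14; the second was lost in 4 of 7 fits that left out 1 library (ad libitum replicates 2 and 3, refed replicates 1 and 2, adjusted p 0.0772 to 0.173). It was 1 of 3 genes called in each, beside 17.7% and 0.375% of all genes tested. Against fasted cells Cd24a differed by 0.14 ± 0.42 (adjusted p = 0.853) and -0.58 ± 0.44 (0.447), and 0 of 3 genes were called at either time, beside 21.8% and 11.7% of all genes. The fasted libraries enter both the fasting and the refeeding comparison, as do the ad libitum libraries. Cebpb, which marks the profile of the fasted libraries, fell with refeeding by 6.39 on the log2 scale at ZT2 and stood in refed libraries at 2.07 to 7.01 at ZT2 and 0.935 to 11.3 at ZT14. Arid5a after refeeding was 47.9, 26.2, 52.2, 35.8 and 151 at ZT2 and 72.0, 107, 92.5 and 96.8 at ZT14. Refed means (62.6 and 92.1) lay between those of ad libitum (36.4 and 78.7) and fasted libraries (116 and 178), although some libraries lay outside these means. At ZT2 Arid5a differed by -1.07 ± 0.54 (adjusted p = 0.162) against fasted and 0.86 ± 0.56 (0.305) against ad libitum libraries. At ZT14 it differed by -0.61 ± 0.57 (0.557) and 0.22 ± 0.71 (1.0). Rnf122 was 73.6, 24.8, 57.7, 45.4 and 45.4 at ZT2, and at ZT14 48.6, 91.7, 69.1 and 48.0, which overlapped both other states (-0.84 ± 0.43, adjusted p = 0.173 against ad libitum at ZT2). Steap4 was 0 in all 5 refed libraries at ZT2 and 6.55, 0, 0 and 0 at ZT14. No gene was called for a refeeding difference that changed between times (0.0% and 0.0% of genes called by limma, 698 and 684 at an unadjusted p under 0.05), and for Cd24a it was -0.72 ± 0.61 against fasted and -0.74 ± 0.70 against ad libitum.

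Cd24a is also expressed by ependymal cells, and the markers of tanycytes and ependymal cells, which line the third ventricle beside the arcuate nucleus, lay higher in the same groups, as did some lists of other cells. The summed count of the 7 markers was 177 to 662 in ad libitum, 902 to 7514 in fasted and 680.0 to 1246 in refed libraries at ZT2. At ZT14 the sums were 464 to 617, 629.7 to 15110.0 and 810.2 to 1302. Fasting called 2 of the 7 higher at ZT2 and 3 at ZT14, and 0 lower at either time; Vim, an intermediate filament gene of many cell types, changed by 1.77 ± 0.30 (adjusted p = 2.04e-05) at ZT2. Of the 7 markers, 3 (Ccdc153, Tmem212 and Crym) were at 0 in all ad libitum libraries at ZT14, and none was at 0 throughout another NPY-GFP group. A group of 4 fasted libraries stood out with sums of 5647 to 15110; their Cd24a was 2804 and 2372 at ZT14, the highest of that group, and 2450.3 and 1522 at ZT2, within the range of that group. Without them Cd24a differed with fasting by 3.12 ± 0.42 (adjusted p = 1.22e-06) at ZT2 and 2.76 ± 0.49 (0.000199) at ZT14. Arid5a differed by 1.82 ± 0.56 (0.0109) and Rnf122 by -1.06 ± 0.43 (0.0522, no longer called) at ZT2 without them. Of the other 9 marker lists, those of other hypothalamic neurons (10 genes) separated with fasting at ZT2, at 3795 to 9603 in ad libitum and 10420.0 to 62860.0 in fasted libraries, with 7 of 9 tested genes called higher and 0 lower. At ZT14 the sums of these neurons overlapped, at 5616 to 14160.0 and 6302 to 23280.0, and separation was seen in endothelium (0 to 1.31 and 3.21 to 22.0) and, with lower sums after the fast, in erythroid genes (19.7 to 21.4 and 1.23 to 7.48). Refed against ad libitum libraries at ZT2, 3 more lists separated. POMC sums were 3281 to 5439 against 1637 to 2888, AgRP neuron sums 556600.0 to 2162000.0 against 203500.0 to 477000.0, and astrocyte sums (6 genes) 1291 to 2784 against 3174 to 5987. The AgRP neuron list includes Agrp and Npy, which themselves differed there by 2.41 ± 0.36 (limma adjusted p = 2.14e-05) and 2.14 ± 0.46 (0.00149). At ZT14 the AgRP neuron sums (457900.0 to 684400.0 against 204700.0 to 447500.0), astrocyte sums (2130.0 to 3081 against 5386 to 5423) and erythroid sums (22.4 to 45.1 against 19.7 to 21.4) separated. Nhlh2 of the POMC list was at 0 in 4 of the 6 NPY-GFP groups and Crh of the other neurons in both ad libitum groups. The part of these marker differences in the Cd24a values was not tested.

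**Figure D3:**
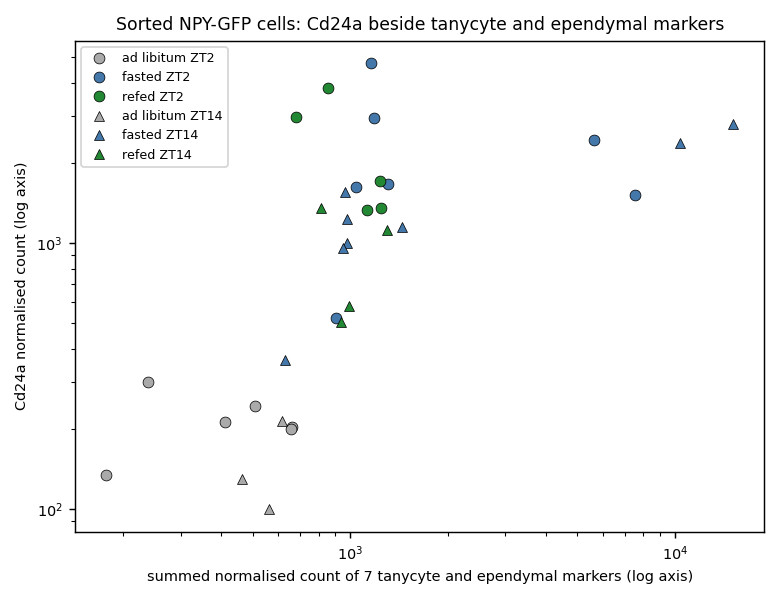
Cd24a normalised count (vertical, log axis) against the summed normalised count of 7 tanycyte and ependymal markers (horizontal, log axis) in the 33 libraries of sorted NPY-GFP cells; each symbol is a library, with grey for ad libitum, blue for fasted and green for refed, circles for ZT2 and triangles for ZT14. The ad libitum libraries lie at the lower left with marker sums of at most 662, and 4 fasted libraries lie far to the right, at sums of 5647 to 15110: the pair of ZT14 libraries has the highest Cd24a of its group (2804 and 2372), and the pair of ZT2 libraries (2450.3 and 1522) does not.

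Several genes related to the 4 were called with fasting in sorted cells, whose fasted libraries carry the profile that cannot be told apart from fasting. The list counts stand beside 37.5% of all genes called at ZT2 (2726 higher and 2867 lower of 14931) and 18.5% at ZT14, and medians over all genes of -0.0236 and -0.0351. Of 9 RNF122 relatives and partners, 5 rose and none fell at ZT2 and 3 rose at ZT14 (list medians 0.47 and -0.17), including the membrane RING ligases Rnf130 (2.96 ± 0.22, adjusted p = 5.76e-12 at ZT2), Rnf149 (1.87 ± 0.20, 6.43e-09) and Rnf128 (1.76 ± 0.33, 6.12e-05). Of 13 ARID family genes, 11 fell at ZT2 and 5 at ZT14 and none rose (medians -1.23 and -0.94), and Arid5b fell with the chromatin remodelling subunit Arid1a (-2.56 ± 0.28, adjusted p = 1.36e-08; -1.23 ± 0.19, 6.66e-06), both at ZT2. Of 6 mRNA decay factors that act on transcripts ARID5A protects, 3 rose and 2 fell at both times (median 2.22 at each): the decay-promoting Zfp36 (3.42 ± 0.49, 1.26e-06 at ZT2) and the nuclease gene Zc3h12a (2.82 ± 0.63, 0.000601) rose, and the roquin genes Rc3h1 (-2.45 ± 0.25, 3.55e-09) and Rc3h2 (-1.48 ± 0.22, 2.06e-06) fell. The iron and copper list had 1 rise and 1 fall among 16 at ZT2 (Hmox1, heme oxygenase, 2.57 ± 0.48, 6.05e-05) and none at ZT14 (medians 0.16 and 0.42), and the CD24 partners 1 and 1 of 6 at ZT2 and 1 fall at ZT14 (medians -0.33 and -0.48). Of 20 STAT3 target genes, 12 rose and 1 fell at ZT2 and 6 and 1 at ZT14 (medians 1.09 and 0.56), with Cebpb (6.56 ± 0.59, 2.67e-10) and Timp1 (4.75 ± 0.70, 2.38e-06) among the risers. The leptin receptor and JAK-STAT list had 2 rises and 5 falls of 20 at ZT2 and 1 and 1 at ZT14 (medians -0.23 and 0.0803), and Lepr was higher after the fast (1.14 ± 0.37, 0.0137; 1.45 ± 0.44, 0.0202). Refed against fasted cells, the same lists gave 8 rises and 0 falls of 13 ARID genes, 0 and 4 of 9 RNF122 relatives and 0 and 10 of 20 STAT3 targets at ZT2, beside 21.8% of all genes; these comparisons share the fasted libraries. Refed against ad libitum cells at ZT2, 4 rose and 1 fell of 20 JAK-STAT genes, beside 17.7% of all genes, with Lepr (2.46 ± 0.40, 6.98e-05), Socs2 (1.54 ± 0.31, 0.000791) and Cish, a suppressor of cytokine signalling (2.48 ± 0.55, 0.00224), among those that rose.

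None of the 3 genes tested was called for time of day in sorted cells; Steap4 did not pass the filter. ZT14 against ZT2 in ad libitum cells gave 0.32 ± 0.50 for Rnf122, 1.45 ± 0.65 for Arid5a and -0.57 ± 0.51 for Cd24a; 0 of 3 were called, beside 0.0% of all genes, with 413 at an unadjusted p under 0.05 and 0 called by edgeR. The Arid5a groups of this comparison did not overlap (adjusted p = 1.0), and the share of all genes that separate so was not counted. In fasted cells the differences were 1.09 ± 0.37 (adjusted p = 0.249), 0.36 ± 0.48 and -0.60 ± 0.37 (0 of 3, beside 0.281%). Refed cells gave 0.41 ± 0.47, 0.82 ± 0.62 and -1.32 ± 0.48 (adjusted p = 0.490 for Cd24a; 0 of 3, beside 0.0268%).

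In RiboTag, Cd24a was on average higher in fasted libraries, and its call depended on the fit. It stood at 674, 315 and 584 in ad libitum and 596, 1042, 738, 1440.4 and 1574 in fasted libraries at ZT2, and at ZT14 at 308, 262, 399 and 291, against 1632, 797, 547, 333 and 1477. The groups overlapped at both times, and the log2 differences were 1.01 ± 0.47 (adjusted p = 0.170) and 1.38 ± 0.43 (0.0738). Without fasted ZT14 replicate 4 the second became 1.70 (adjusted p = 0.0163). The quasi-likelihood test of edgeR on recovered reads also gave 1.70 (adjusted p = 0.0394). Limma with library weights gave 1.67 (adjusted p = 0.00197) at ZT14 and 1.33 (adjusted p = 0.0308) at ZT2. At ZT2 no fit without 1 library was called. The AgRP neuron sums of these libraries separated at ZT2 (38780.0 to 151800.0 in ad libitum and 191500.0 to 4264000.0 in fasted libraries) and overlapped at ZT14 (80590.0 to 106100.0 and 27490.0 to 307400.0). This list includes Agrp and Npy, which themselves differed by 3.49 ± 0.99 (limma adjusted p = 0.0385) and 2.96 ± 0.92 (0.0565) at ZT2. The sum therefore does not measure the share of AgRP neurons alone. Sums of the 9 other marker lists overlapped at both times. Their part in the Cd24a values was not tested. Arid5a was 365, 222 and 124 in ad libitum, against 302, 268, 192, 212 and 169 in fasted libraries at ZT2, and 346, 159, 330.4 and 170.0, against 119.7, 256, 495, 268 and 251, at ZT14, and Rnf122 ranged from 74.0 to 248 over all 17 libraries. Both overlapped between states, with differences of 0.05 ± 0.45 and 0.10 ± 0.41 for Arid5a and -0.01 ± 0.40 and -0.15 ± 0.37 for Rnf122. By limma, 0 of 4 genes were called at either time, beside 7.89% and 5.29% of 15444 genes, and none was called for a fasting difference that changed between times (0.0% of genes called by limma, 252 at an unadjusted p under 0.05; Cd24a 0.36 ± 0.64). Time of day likewise gave 0 of 4 in ad libitum (0.0% of genes, 92 unadjusted, 0 by edgeR) and in fasted mice (0.0%, 1381 unadjusted, 0 by edgeR). Among the lists, Rnf130 (2.46 ± 0.40, limma adjusted p = 0.000957) and Rnf149 (3.00 ± 0.27, 1.00e-06) were also higher in fasted RiboTag libraries at ZT2. Of 9 RNF122 relatives and partners 2 rose and 1 fell there (median -0.57), and of 12 tested ARID genes 1 fell (median -1.11). These counts stand beside 7.89% of all genes and a median over all genes of -0.185. The fasted libraries of both sets share the profile of Cebpb and Alyref, which cannot be told apart from fasting. Rn45s differed with fasting in RiboTag by -2.22 ± 1.02 (limma adjusted p = 0.166) at ZT2 and -3.37 ± 0.93 (0.0425) at ZT14.

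Steap4, near 0 in the other libraries without leptin, was above 0 in 13 of 17 RiboTag libraries. Its values were 17.6, 229 and 0 in ad libitum and 2.72, 14.7, 34.8, 13.2 and 0 in fasted libraries at ZT2, and at ZT14 77.7, 11.6, 26.5 and 0, against 0, 9.49, 37.6, 10.6 and 31.3. The library with the highest value, ad libitum ZT2 replicate 2, also had high marker sums of mural cells (19830, 8 genes) and endothelium (12890, 6 genes), the cells of vessel walls. The highest mural sum (23670) and the highest endothelial sum (23510) were in fasted ZT14 libraries, where Steap4 was at most 37.6. Mural sums reached 20390 in ad libitum libraries at ZT14, where Steap4 was at most 77.7. Mural sums ran from 1275 to 23670 in RiboTag and from 23.1 to 712 in the 63 other libraries. Glial sums were also high in RiboTag: oligodendrocytes (6 genes) ran from 10830.0 to 240500.0, against 751 to 6537 in the others. Microglial sums (7 genes) ran from 822 to 41090.0, against 0 to 995, and those of astrocytes (6 genes) from 13070.0 to 232100.0, against 1291 to 34110.0. In the library with the highest Steap4 these 3 sums were 16870.0, 1676 and 25690.0. All 3 glial sums were highest in fasted ZT2 replicate 3, where Steap4 was 34.8. The fasting differences of Steap4 were -1.05 ± 1.70 (adjusted p = 0.725) and -0.24 ± 1.56 (0.963). Without the 5 libraries of highest mural sums they were 0.32 ± 1.67 (0.931) and -0.50 ± 1.58 (0.934), and those of Cd24a were 0.80 ± 0.53 (0.386) and 1.27 ± 0.50 (0.243). In the leptin libraries, where Steap4 reached 845, mural sums were 121 to 213 and 36.4 to 72.5 in controls and 61.2 to 144 and 48.1 to 84.0 in knockouts, beside 58.5 to 171, 37.7 to 101, 38.1 to 89.6 and 55.9 to 64.6 with PBS in the same order. Endothelial sums in the leptin libraries were at most 19.0, and the part of vessel-wall and glial RNA in the RiboTag values was not tested.

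**Figure D4:**
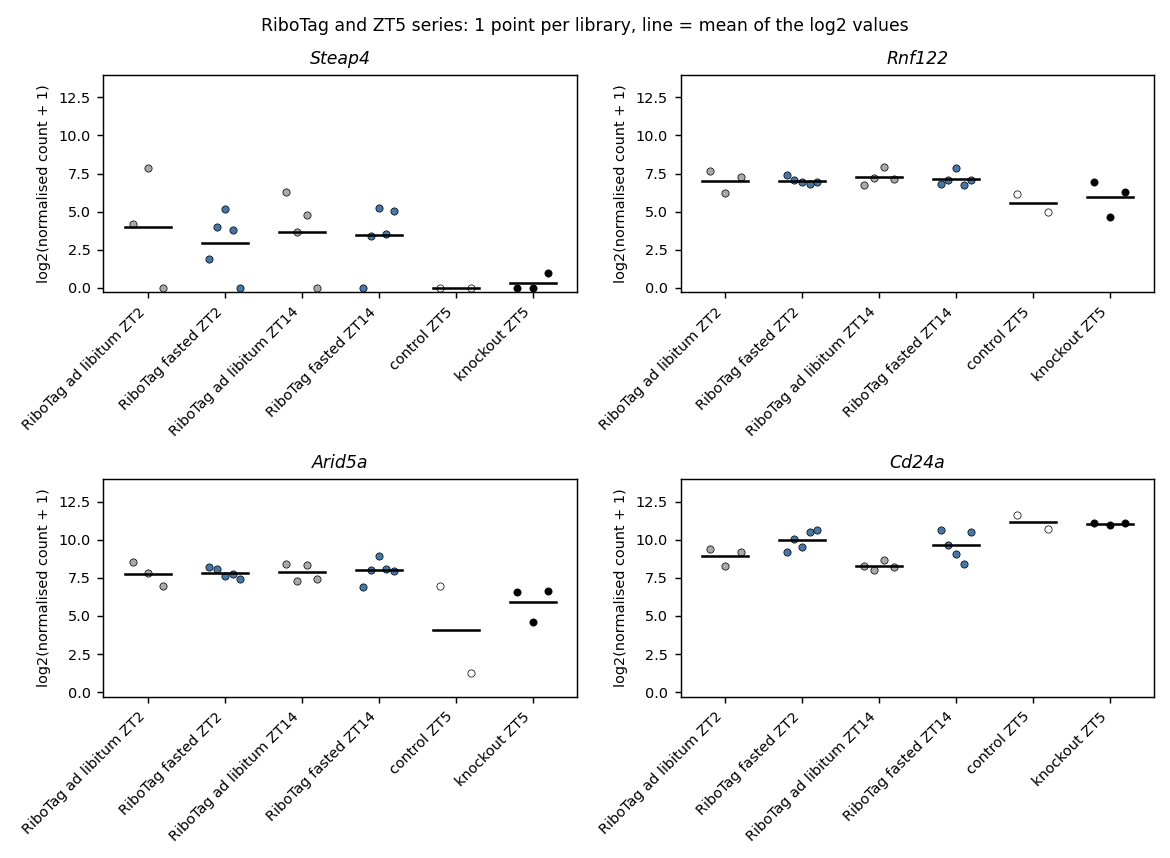
Normalised counts of the 4 genes in the 17 RiboTag and 5 ZT5 libraries, as log2(normalised count + 1) on the vertical axis, by group; each point is a library and each line the mean of a group. Steap4 spreads from 0 to 229 within RiboTag ad libitum ZT2, and Cd24a of fasted RiboTag libraries overlaps that of ad libitum libraries.

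At ZT5 none of the 3 genes tested was called between knockouts and controls. Cd24a was 3199 and 1666 in controls and 2151, 1961 and 2236 in knockouts (-0.13 ± 0.26, adjusted p = 0.902). Rnf122 was 68.9 and 29.9 in controls, against 122, 24.2 and 77.8 in knockouts (0.43 ± 0.83, 0.896), and Arid5a 123 and 1.36, against 92.3, 22.8 and 98.4 (1.82 ± 1.50, 0.725). Steap4 was 0 in 4 of the 5 libraries and 0.937 in the other. Limma called 0.0% of 12940 genes, with 1157 at an unadjusted p under 0.05 and 0 called by edgeR. Without the 2 libraries whose Hsd11b2 went against the label, a single library labelled control remained, assumed to vary like the others, and the differences were 0.30 ± 0.33 for Cd24a, 0.85 ± 1.21 for Rnf122 and 4.32 ± 1.41 (adjusted p = 0.419) for Arid5a.

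Ranked over the 20 groups, the 4 leptin groups held ranks 1 to 4 for Steap4, Rnf122 and Arid5a, as the choice of the genes implies. For Steap4 the mean was highest in knockout leptin ZT14 (535 ± 309, SD, n = 3), and RiboTag ad libitum ZT2 came next after the leptin groups (82.3 ± 128, SD, n = 3). Rnf122 was lowest in fasted NPY-GFP cells at ZT2 (47.8 ± 27.1, SD, n = 7), and Arid5a in ad libitum NPY-GFP cells at ZT2 (36.4 ± 22.2, SD, n = 6). Cd24a was highest in the knockout leptin groups (4289 ± 328, SD, n = 3 at ZT14; 4018 ± 489, SD, n = 3 at ZT2) and lowest in ad libitum NPY-GFP cells (215 ± 54.6, SD, n = 6 at ZT2; 147 ± 59.3, SD, n = 3 at ZT14), with PBS, fasted, refed and ZT5 groups between. Neighbouring groups in these orders overlapped for all 4 genes, with 1 exception, Cd24a of knockout leptin ZT2 above control leptin ZT2. The deposited sets may differ in collection, so that levels set across them are a description.

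As a description, group means of log2(value + 1) were centred within each of the 4 sets. They were compared with those of 11487 genes over the 20 groups by Pearson's r. The labels do not state which groups of a set were prepared together. Steap4 was most like Rnf122 (r = 0.908), Serpina3i (0.872) and Arid5a (0.862), and over the 12 groups outside the leptin series these values were 0.303, 0.161 and 0.224. Rnf122 was also like Tmem88b (0.848, and 0.530 outside the series). Arid5a was most like Rnd3 (0.875), a likeness that stood at 0.879 over the 12 other groups, and like Ptger2, a prostaglandin receptor gene (0.857 and 0.448). Cd24a was most like none of the other 3 genes but Cd68, a lysosomal glycoprotein gene (0.922 and 0.963), Rad51l1 (0.915 and 0.965) and Gcnt2, a glycosyltransferase gene (0.911 and 0.899). Outside the leptin series Cd24a and Rnf122 had r = -0.768 over the 12 groups, against 0.751 within it over 8.

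**Figure D5:**
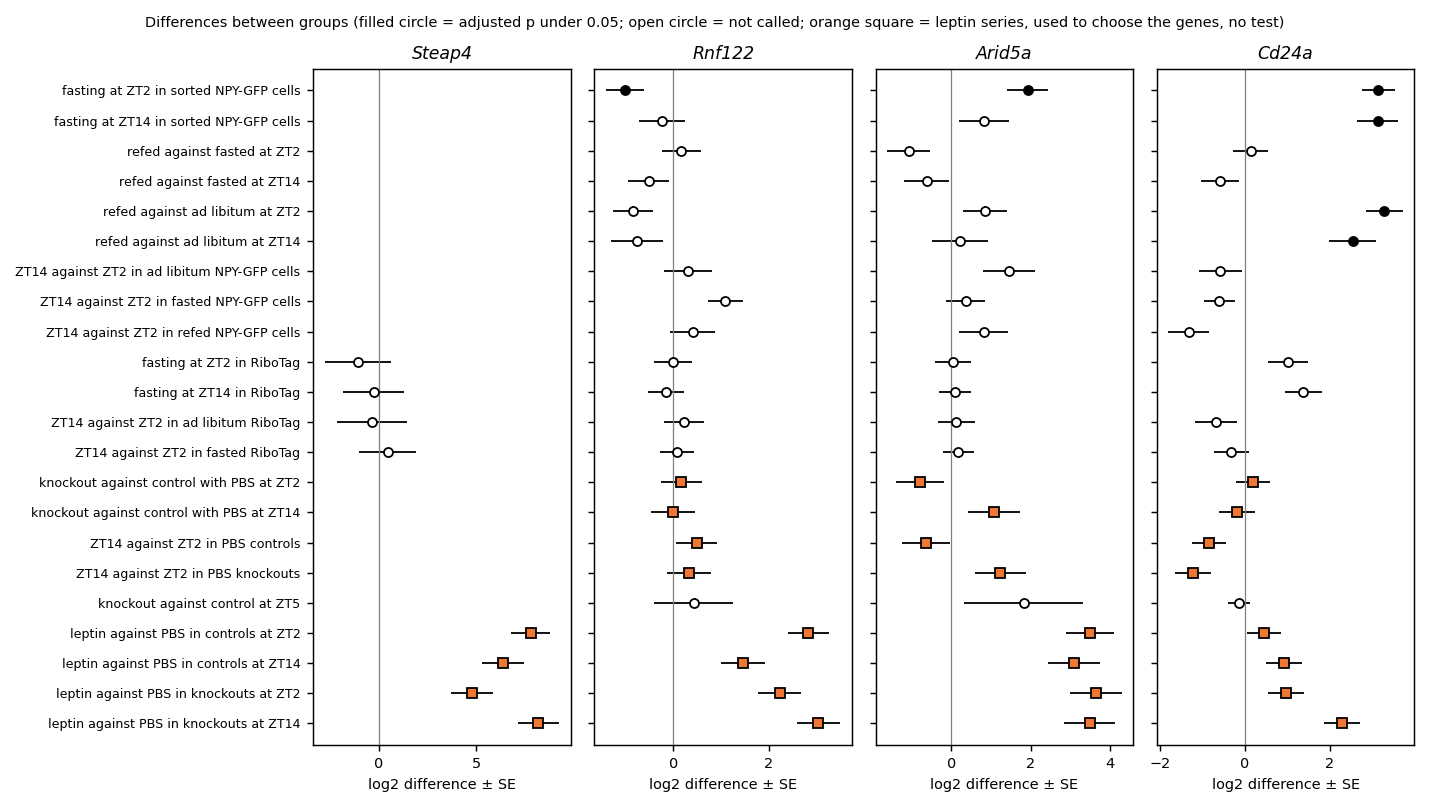
Log2 differences (horizontal axis, ± SE) of the 4 genes in each comparison; filled circles mark an adjusted p under 0.05, open circles those not called, and orange squares the comparisons within the leptin series, whose libraries chose the genes, with no test. Outside that series, calls were made for Cd24a in 4 comparisons and for Rnf122 and Arid5a in fasting at ZT2, and Steap4 has no value where it did not pass the filter or between PBS groups.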

How the data were processed

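RNA-seq gene values of 80 libraries were used: NPY-GFP 33, RiboTag 17, leptin series 25 and ZT5 5. Per the labels' protocols, GFP-positive cells were sorted from arcuate slices and RiboTag RNA was immunoprecipitated, and RNA was amplified with a SMART-seq kit before Nextera XT libraries. The submitters' processing notes name mm10, R 3.5.1, DESeq2, DESeq, featureCounts (Subread) and STAR 2.5.1, without role or order. The authors deposited signal: each library's gene counts scaled by a size factor. In 79 libraries whole reads were recovered from the steps of the values (99.99% or more of them whole, to within 0.1); NPY-GFP ad libitum ZT2 replicate 4 could not be recovered and was left out of the count test, and no library was left out of the limma fits. All groups of a set entered 1 fit, separate for the 4 sets, made with limma-trend (limma 3.58.1, R 4.3.3) on log2(value + 1). Genes had to reach 10 in a number of libraries equal to that of the smallest group, and Benjamini-Hochberg adjustment covered every gene tested (threshold 0.05). This scale understates differences of low genes. On the recovered reads edgeR called 5002 and 2624 genes for fasting at ZT2 and ZT14 in sorted cells, against 5593 and 2758 by limma. edgeR 4.0.16 (quasi-likelihood) on recovered reads, pseudocounts of 0.5 and 10, no filter, TMM rescaling, library weights, a replicate block and leaving out each library were alternatives; leaving out the libraries that stood apart, and the tests of differences between times, were added after the data were seen. Whether replicates are separate mice is not stated in the labels; p-values therefore measure the spread between libraries alone, and that may be technical. The members and the gene lists were chosen with earlier results of these data known. Comparisons among PBS libraries, planned as tests, are given as description. Named were the members, the genes that check labels and profile, up to 4 called genes of each list with the smallest p (up to 2 where none was called), and the 3 genes most like each member. The fit was tested on simulated data.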

Additional observations from a re-analysis of the deposited data

Results flagged for a closer look

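The highest library passed Dixon's 95% critical value in 7 of 35 combinations of a member and a group of 4 to 10 libraries. Its rate of about 1 in 20 holds for normally distributed values and not for counts near 0. For Steap4 the flagged normalised counts were 15.8 in fasted NPY-GFP replicate 1 at ZT14, 14.001 in fasted replicate 7 at ZT2, 6.55 in refed replicate 1 at ZT14 and 1.03 in control PBS replicate 1 at ZT2. In the last 3 of these groups every other library was at 0, so that the flag was fixed by construction. Rnf122 stood at 235 in fasted RiboTag replicate 3 at ZT14, where the other 4 libraries had 107 to 133; Arid5a was also highest in that library, at 495. Arid5a stood at 151 in refed replicate 5 at ZT2, beside 26.2 to 52.2 in the other 4. Cd24a stood at 4395 in control PBS replicate 1 at ZT2, beside 1102 to 1524; without this library the Cd24a difference of leptin against PBS in controls at ZT2 was 0.89, compared with 0.45 with it.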

How the results depend on the processing

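Of 1232 recomputed values of 78 results, 1143 were counted as unchanged. They kept direction and side of the threshold or, for the untested leptin differences, moved by less than the gene's residual SD. Comparisons among PBS libraries, given above without a test, entered this tally by direction and side of the threshold, Steap4 included. Another 66 changed sign, all of them not called before or after. The cause was not tested except where the setting's construction gives it. With a pseudocount of 10 the Steap4 leptin differences became 4.75, 4.37, 2.70 and 5.45 (controls ZT2 and ZT14, knockouts ZT2 and ZT14), since its PBS values are near 0, and edgeR gave 9.60 in controls at ZT2. Cd24a passed the threshold for fasting in RiboTag at ZT14 by edgeR (1.70) and with library weights (1.67), and with weights at ZT2 (1.33). The lower Rnf122 after fasting at ZT2 in sorted cells was lost without a filter (-1.01, adjusted p = 0.0519), with weights (-0.67) and without the 4 high-marker libraries (-1.06). Sign changes with library weights were Rnf122 -0.18 for refed against fasted at ZT2 and 0.18 for fasting at ZT2 in RiboTag. For genotype with PBS, Rnf122 changed to -0.30 at ZT2 and -0.046 at ZT14. Arid5a changed to -0.36, -0.0070 and -0.025 for time in fasted NPY-GFP cells and in ad libitum and fasted RiboTag. Cd24a changed to -0.21 for refed against fasted at ZT2. Rnf122 for fasting at ZT2 in RiboTag was 0.10 with TMM. Deviations from the group mean of same-numbered replicates in the leptin series had a median r of 0.0329, beside -0.0207 for other pairs. Of these same-numbered pairs, 23 of 78 lay over r = 0.1. Other pairs were not counted this way, so that pairing by number was not settled. With the replicate block, Rnf122 for fasting at ZT2 in RiboTag was 0.087 and Steap4 for time in ad libitum RiboTag 0.0060, and no call of a member changed. Counts of genes called with the block moved from 42 to 9 for time in fasted NPY-GFP cells, from 0 to 2 at ZT5, from 0 to 2 for leptin in controls at ZT14 and from 1 to 0 for time in PBS controls. Without the 5 RiboTag libraries of high mural sums, sign changes were Steap4 0.32 (fasting at ZT2 in RiboTag), Steap4 0.71 (ZT14 against ZT2 in ad libitum RiboTag), Steap4 -0.11 (ZT14 against ZT2 in fasted RiboTag), Rnf122 -0.018 (ZT14 against ZT2 in ad libitum RiboTag), Rnf122 -0.18 (ZT14 against ZT2 in fasted RiboTag), Arid5a -0.039 (fasting at ZT14 in RiboTag), Arid5a -0.034 (ZT14 against ZT2 in ad libitum RiboTag), Arid5a -0.20 (ZT14 against ZT2 in fasted RiboTag), and 733 genes were called for fasting at ZT2 in RiboTag against 1219; without 2 ZT5 libraries Cd24a was 0.30 and 1 gene was called. Leaving out 1 library at a time changed a call or the sign in these comparisons, with the lowest and highest log2 differences: fasting at ZT2 in RiboTag (Steap4 -3.06 to 0.86, Rnf122 -0.42 to 0.29, Arid5a -0.35 to 0.43), fasting at ZT14 in RiboTag (Steap4 -1.47 to 0.63, Rnf122 -0.35 to 0.079, Arid5a -0.14 to 0.36, Cd24a 1.13 to 1.70), ZT14 against ZT2 in ad libitum RiboTag (Steap4 -2.35 to 1.58, Rnf122 -0.19 to 0.53, Arid5a -0.27 to 0.51), ZT14 against ZT2 in fasted RiboTag (Steap4 -0.27 to 1.33, Rnf122 -0.12 to 0.17, Arid5a -0.067 to 0.44, Cd24a -0.57 to 0.0070), knockout against control with PBS at ZT2 (Steap4 -0.25 to 1.66, Rnf122 -0.19 to 0.53, Cd24a -0.039 to 0.63), ZT14 against ZT2 in PBS knockouts (Steap4 -1.28 to 0.68, Rnf122 -0.036 to 0.68), fasting at ZT2 in sorted NPY-GFP cells (Rnf122 -1.21 to -0.81), refed against fasted at ZT2 (Rnf122 -0.025 to 0.39, Cd24a -0.17 to 0.36), knockout against control with PBS at ZT14 (Rnf122 -0.16 to 0.16, Cd24a -0.63 to 0.39), knockout against control at ZT5 (Rnf122 -0.16 to 1.08, Arid5a -1.03 to 4.68, Cd24a -0.60 to 0.34), refed against ad libitum at ZT14 (Cd24a 2.29 to 2.84). Counts of genes called rose with library weights: fasting at ZT14 in sorted NPY-GFP cells 5539 against 2758, refed against fasted at ZT14 3960 against 1741, refed against ad libitum at ZT14 737 against 56, fasting at ZT2 in RiboTag 2877 against 1219, fasting at ZT14 in RiboTag 2145 against 817, knockout against control with PBS at ZT2 240 against 3, leptin against PBS in controls at ZT2 73 against 3, leptin against PBS in controls at ZT14 165 against 0, leptin against PBS in knockouts at ZT2 620 against 59, ZT14 against ZT2 in ad libitum NPY-GFP cells 35 against 0, ZT14 against ZT2 in fasted NPY-GFP cells 301 against 42, ZT14 against ZT2 in refed NPY-GFP cells 93 against 4, ZT14 against ZT2 in PBS controls 6 against 1, ZT14 against ZT2 in PBS knockouts 8 against 0, ZT14 against ZT2 in fasted RiboTag 1 against 0. For time in fasted NPY-GFP cells, against 42 genes, edgeR and the fit without a filter each called 26 and the fit without the 4 high-marker libraries 17; edgeR called 0 for time in refed cells (against 4) and in PBS controls (against 1), and 1 for genotype with PBS at ZT2 (against 3). Without a filter 7 genes were called for leptin in controls at ZT2 (against 3), 3 for genotype with PBS at ZT14 (against 1), and 3, 2 and 2 for time in ad libitum cells, refed cells and PBS knockouts (against 0, 4 and 0); a pseudocount of 10 gave 1 for leptin in controls at ZT14, 1 for genotype with PBS at ZT2 and 0 for time in PBS controls. Depth limits Steap4 most: the PBS groups held 1, 10, 16 and 3 of its reads.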
